A study of Mus musculus with 12 samples.

Results

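The measurements here are of the miR-99, miR-100 and miR-125 families, small regulatory RNAs whose genes lie beside let-7 genes in the mouse genome. The members were taken by name: every assay without the mark # whose miRNA number is exactly that of miR-99, miR-100 or miR-125, with any letter or arm. That rule took 6 of 619 miRNA assays, namely miR-99a, miR-99b, miR-100, miR-125b, miR-125a-5p and miR-125a-3p. The mark # stands for the other arm of a hairpin, by older naming the less abundant one.

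The study measured miRNAs in mouse hippocampus by TaqMan OpenArray quantitative PCR, which gives a threshold cycle (Ct) for each assay, and a lower Ct means more RNA. There were 12 samples in 4 groups of 3: wt control, P2X7-/- control, wt post-SE and P2X7-/- post-SE, where SE is status epilepticus, a prolonged seizure. The P2X7 receptor is an ion channel opened by extracellular ATP, and the P2X7-/- mice lack exon 2 of P2rx7 in all cells. These miRNA assays hold no value for P2rx7 itself, so the knockout could not be checked here.

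The labels give the strain as C57BL/6 and the age as 8 weeks, while the methods give 8 to 12 weeks. Both post-SE groups received 0.3 µg kainic acid in 0.2 µl of phosphate-buffered saline into the right basolateral amygdala, and both control groups received 0.2 µl of the saline as vehicle. All 4 groups were given lorazepam at 6 mg/kg 40 min after the injection, and the hippocampus of the injected side was taken at 8 h. Hippocampi of 2 mice were pooled for each sample, so the p-values below measure the spread between 3 such pools per group. The labels do not say what the sample numbers 1, 2 and 3 stand for.

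A miRNA guides an Argonaute protein to messenger RNAs, mainly through its seed, bases 2 to 8. The miR-99 family, to which miR-100 belongs, is known to act on the messenger RNA of the growth kinase mTOR. The miR-125 family is the vertebrate counterpart of lin-4 of the worm, which with let-7 is known for timing development, and miR-125b is known as an abundant brain miRNA. In vertebrates these genes are grouped, 1 of the miR-99 family, 1 let-7 and 1 of the miR-125 family in each cluster.

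The mature sequences of the 6 members are shown because the assays differ by few bases and fall into 3 seed groups. They are the mouse sequences of RefSeq (GRCm38.p6), matched by name for 6 of 6 members and written 5′ to 3′ with the seed in capitals. The sequences that the assays themselves target are not in the files.
miR-99a-5p: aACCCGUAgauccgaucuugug
miR-100-5p: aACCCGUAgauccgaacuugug
miR-99b-5p: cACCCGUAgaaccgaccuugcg
miR-125b-5p: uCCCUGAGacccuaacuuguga
miR-125a-5p: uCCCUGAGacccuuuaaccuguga
miR-125a-3p: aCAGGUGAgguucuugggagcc

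The first 3 share 1 seed, the next 2 share another, and miR-125a-3p, from the other arm of the miR-125a hairpin, has a seed of its own. Counted from 1 at the 5′ end, miR-99a and miR-100 differ by the single substitution U16A (miR-99a first). Between miR-99a and miR-99b there are 4, A1C, U11A, U16C and U21C. miR-125b and miR-125a-5p share their first 13 bases and have the same base at 15 of the 22 positions compared.

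A pair of relatives is shown because miR-351-5p shares a seed with members and miR-10a-5p comes close to members in sequence.
miR-351-5p: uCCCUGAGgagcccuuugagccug
miR-10a-5p: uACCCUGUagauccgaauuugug
miR-351-5p has the seed of miR-125b and matches it at 10 of 22 bases. miR-10a-5p has another seed, but moved by 1 base it matches miR-100 at 19 of 22 bases and miR-99a at 18.

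All members lie on the + strand, in 3 clusters. Mir100, Mirlet7a-2 and Mir125b-1 lie within 50578 bases on chromosome 9, inside the long non-coding RNA gene Mir100hg. Mir99a, Mirlet7c-1 and Mir125b-2 lie within 47408 bases on chromosome 16, inside no other gene of the annotation. Mir99b, Mirlet7e and Mir125a lie within 692 bases on chromosome 17, inside the protein-coding gene Spaca6. Mature miR-125b is the same from chr9:41581940-41581961 and chr16:77646279-77646300, so its assay cannot tell these genes apart.

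The values below are relative levels on the log2 scale: the mean Ct of the 335 assays with a Ct in all 12 samples, minus the assay's Ct. A level of 0 is the average assay, and 1 more is about 2 times the RNA. Ct values of the miRNA assays run from 10.0635 to 27.9986, and a blank does not say on which side of that range an assay fell. Different assays amplify with different efficiency, so the order of levels between assays is approximate.

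A single sample, wt control 1, stood apart before any group was compared. Of the 335 assays, 72 in wt control 1 (21.5%) lay more than 2 cycles from their median in the other samples, while wt control 2 had 3 and wt control 3 had 8. The counts for samples 1, 2 and 3 were 28, 5 and 16 in P2X7-/- control, 24, 14 and 6 in wt post-SE, and 19, 10 and 3 in P2X7-/- post-SE. In each group the sample numbered 1 had the highest count. The number of miRNA assays with a Ct was lowest in wt control 1, at 470, and between 476 and 538 in the other samples, and mean Ct over the 335 assays ran from 18.2 to 19.3.

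**Figure D1:**
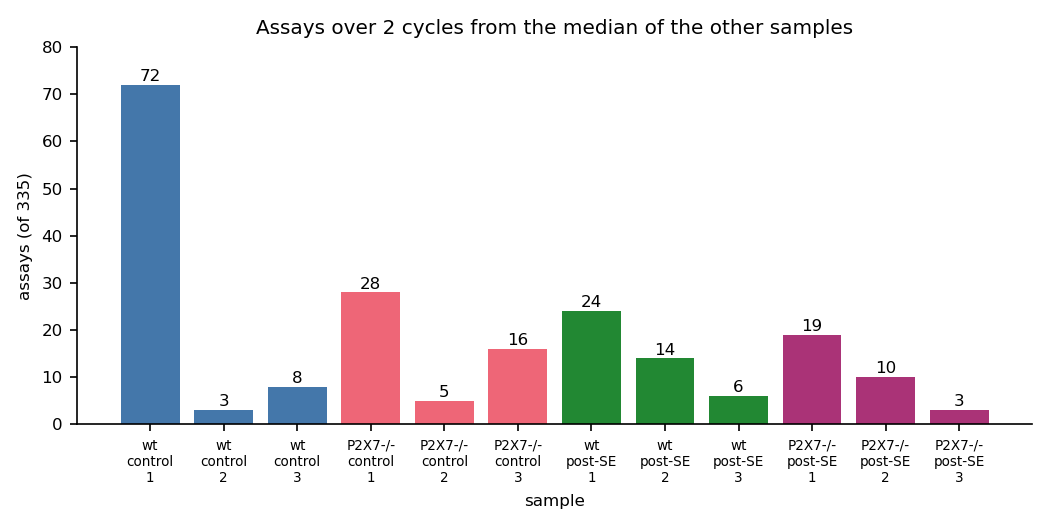
Number of the 335 assays (y axis) that lay more than 2 cycles from their median in the other samples, 1 bar per sample. The bar of wt control 1 stands at 72, and the next is P2X7-/- control 1 at 28.

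The control wells varied most in the same sample. Of 16 wells of snoRNA135, 14 had a Ct in wt control 1, with an SD of 3.63 cycles, and 14 to 16 in the other samples, with an SD of at most 1.38. For snoRNA202 the SD was 3.74 over 12 wells in wt control 1 and at most 0.400 over 3 to 16 wells elsewhere, with sample medians of 10.1 to 10.5 cycles, close to the lower end of the listed values. The plant assay ath-miR159a, for an RNA that mouse tissue lacks, had a Ct of 23.9 in wt control 1 and 13.5 in P2X7-/- post-SE 1, in 1 of its 2 lines each, and none elsewhere. The part of such events in the members' values was not tested.

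The label hippocampus was checked against marker miRNAs. All 5 neuron markers had an assay, of which miR-128a and miR-137 had a Ct in 12 of 12 samples with median levels of 4.66 and 4.23. miR-124a had a Ct in 11 samples (median 4.31), miR-138 in 10 (8.23) and miR-9 in 4 (8.66). Summed on the linear scale and written as log2, the neuron markers stood at 5.17, 8.36 and 6.06 in wt control 1 to 3, at 9.72, 8.48 and 9.35 in P2X7-/- control, at 9.88, 8.64 and 8.53 in wt post-SE, and at 6.69, 8.55 and 9.88 in P2X7-/- post-SE. Neuron markers were thus present in each sample. The 3 lowest sums are of the samples in which miR-138 was at its lowest level, −4.94 (wt control 1), or had no Ct (wt control 3 and P2X7-/- post-SE 1). miR-9, with a median of 8.66, enters the sums of only the 4 samples in which it had a Ct. The sums therefore depend on which markers had a Ct and are not read as neuron content.

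Markers of other cell types ran from abundant to low. Oligodendrocyte markers had median levels of 0.90 (miR-219) and −0.34 (miR-338-3p), myeloid markers of 1.09 (miR-142-3p) and of 5.20 and 2.73 (the miR-223 assays), and the endothelial marker miR-126 of 8.31 in 10 samples. Among mural cell markers miR-145 had a median of 5.01 and the assays of miR-143 had −2.47 and 3.10 (11 samples each). Among red blood cell markers miR-486 had 2.22, miR-451 0.52 and miR-144 −3.87, with a Ct in 8 samples. The liver marker miR-122 was low, at −5.47 in 11 samples, and of the muscle markers miR-133a had 2.86, miR-206 −3.81 and the assays of miR-1 −2.84 and −3.18 (11 samples each). By summed level, wt control 1 was lowest for mural cells, at 1.94 against 4.96 to 7.96 in the other samples. It was highest for red blood cells (4.62 against 2.12 to 4.16) and muscle (4.00 against 1.67 to 3.46). P2X7-/- post-SE 1 was highest for oligodendrocytes (3.92 against 0.84 to 2.20). Whether these relate to the members' values was not tested. In bulk samples such as these, fewer cells of a type and less RNA per cell cannot be told apart.

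Of the 6 members, miR-99a, miR-99b and miR-125a-3p had a Ct in all 12 samples. miR-100 had none in P2X7-/- control 1, miR-125b none in P2X7-/- post-SE 1, and miR-125a-5p none in wt control 1 and P2X7-/- control 1. All 4 missing values are in samples numbered 1, and the 3 members concerned are among the abundant ones.

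miR-99a, the chromosome 16 member of its family, had relative levels of −6.69, 4.98 and 4.58 in wt control 1 to 3, of 2.34, 5.15 and 5.05 in P2X7-/- control, of 4.96, 5.22 and 4.98 in wt post-SE, and of 5.01, 4.95 and 4.56 in P2X7-/- post-SE. The other 10 samples lay between 4.56 and 5.22. With wt control 1 and P2X7-/- control 1 set aside, both remaining P2X7-/- control values lay above those of wt control and of P2X7-/- post-SE, and the other pairs of groups overlap. In Ct, wt control 1 stood at 25.7 and P2X7-/- control 1 at 16.8, the others at 13.5 to 14.5. The group mean was 0.96 ± 6.63 (SD, n = 3) in wt control and 5.05 ± 0.14 (SD, n = 3) in wt post-SE.

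miR-100, which differs from miR-99a by U16A, had levels of −4.22, 5.04 and 5.0 in wt control, of 5.11 and 4.98 in P2X7-/- control 2 and 3, of 4.77, 5.12 and 5.13 in wt post-SE, and of 5.95, 4.84 and 4.55 in P2X7-/- post-SE. It was low in the same sample as miR-99a, wt control 1, and highest in P2X7-/- post-SE 1. The other 9 values lay between 4.55 and 5.13, and the groups overlap.

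miR-99b, the chromosome 17 member, had levels of 5.52, 4.11 and 3.81 in wt control, of 4.87, 4.19 and 4.42 in P2X7-/- control, of 4.15, 4.30 and 4.25 in wt post-SE, and of 3.92, 4.37 and 3.45 in P2X7-/- post-SE. It was not low in wt control 1: there it had its highest level, 1.33 above its median in the other samples. Its group means lay between 3.92 ± 0.46 (SD, n = 3, P2X7-/- post-SE) and 4.49 ± 0.34 (SD, n = 3, P2X7-/- control), and all 4 groups overlap.

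miR-125b, the most abundant member, had levels of 7.65, 6.78 and 6.52 in wt control, of 8.33, 6.92 and 7.39 in P2X7-/- control, of 7.92, 7.06 and 6.87 in wt post-SE, and of 7.16 and 6.55 in P2X7-/- post-SE 2 and 3. The 3 samples numbered 1 with a Ct (7.65, 8.33 and 7.92) lay above the other 8 samples, a split noticed after the values were seen and not tested. Its Ct ran from 10.8 to 12.5, close to the lower end of the listed values.

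miR-125a-5p, with the same seed as miR-125b, had levels of 5.87 and 6.11 in wt control 2 and 3, of 5.77 and 5.20 in P2X7-/- control 2 and 3, of 5.51, 6.17 and 5.96 in wt post-SE, and of 6.12, 5.64 and 6.03 in P2X7-/- post-SE. Both P2X7-/- control values lay below both wt control values, and wt post-SE and P2X7-/- post-SE overlap with each other and with both controls.

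miR-125a-3p, from the other arm of the same hairpin, had levels of −6.43, −4.48 and −4.55 in wt control, of 3.59, −4.78 and −5.08 in P2X7-/- control, of −5.80, −4.69 and −4.43 in wt post-SE, and of −4.87, −4.40 and −4.67 in P2X7-/- post-SE. It was far above the other samples in P2X7-/- control 1, at a Ct of 15.6 against 22.8 to 25.5. In that sample the 5p arm, abundant elsewhere, had no Ct. Without P2X7-/- control 1 the groups overlap.

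**Figure D2:**
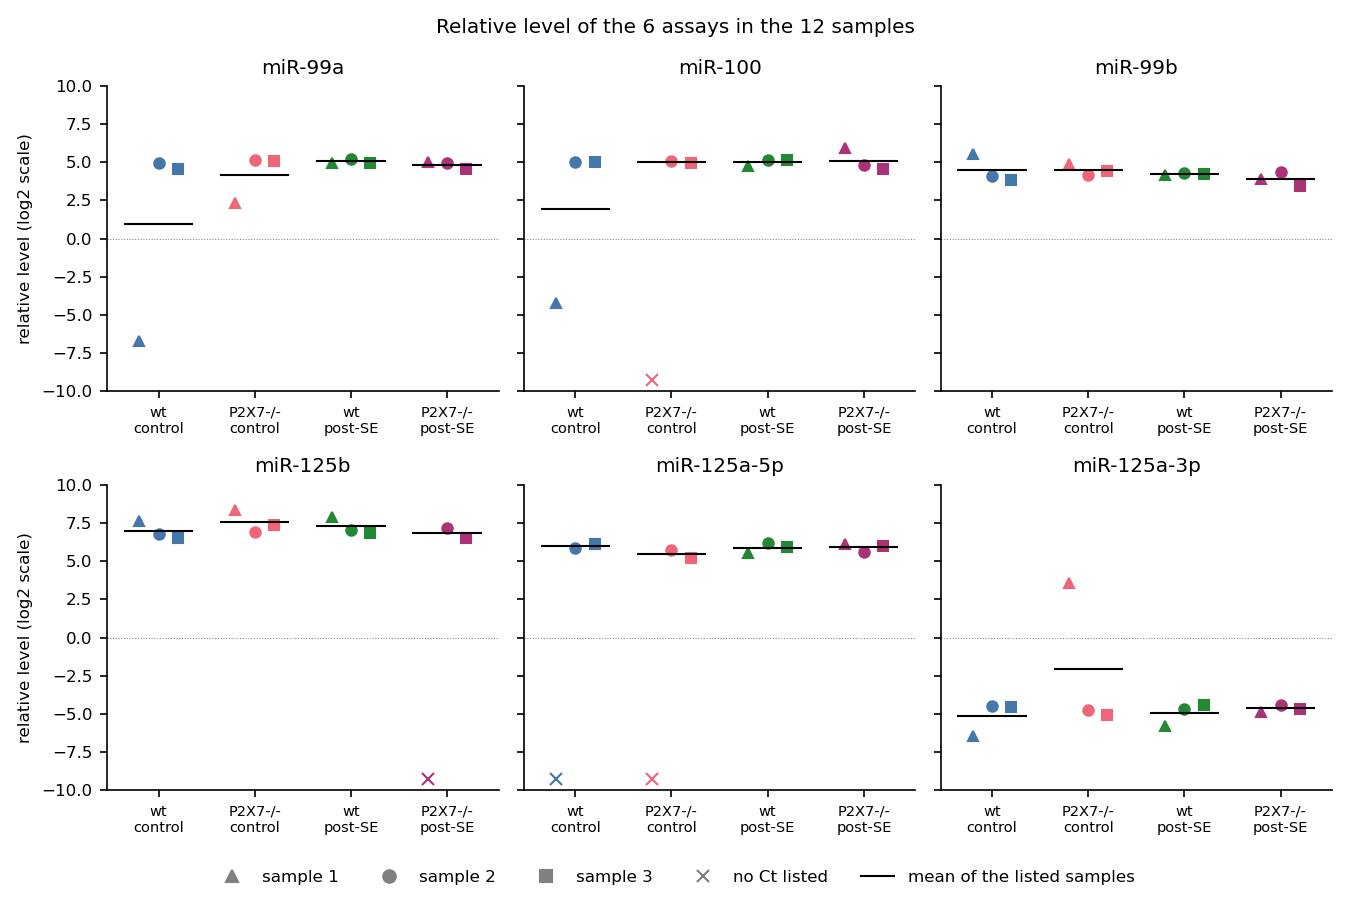
Relative level (y axis, log2) of each member in the 12 samples by group (x axis), with triangles, circles and squares for samples 1, 2 and 3, a line for the mean of the samples with a Ct, and a cross at the bottom where there was no Ct. The low triangles of miR-99a (−6.69) and miR-100 (−4.22) in wt control and the high triangle of miR-125a-3p (3.59) in P2X7-/- control are samples numbered 1.

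Of the 6 members' values, 4 lay more than 2 from their median in the other samples, and all 4 were in control samples numbered 1. They were miR-99a at −11.67 and miR-100 at −9.23 in wt control 1, and miR-99a at −2.64 and miR-125a-3p at 8.28 in P2X7-/- control 1. In wt control 1, miR-99a and miR-100 were both low while miR-99b of the same family was high. miR-125b, whose genes lie on the chromosomes of miR-99a and miR-100, was 0.66 above its median there. miR-125a-5p had no Ct in either sample and miR-100 none in P2X7-/- control 1, so sharing could not be judged for these.

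**Figure D3:**
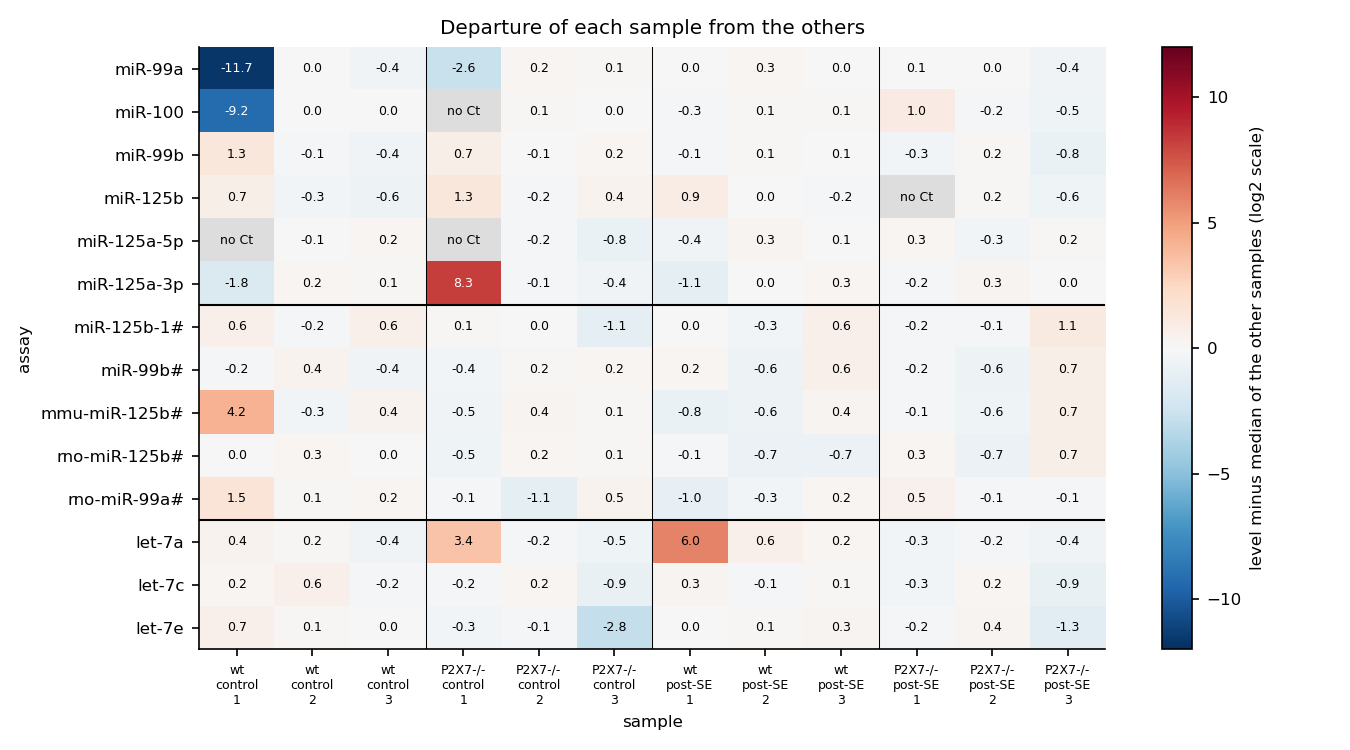
Level minus its median in the other samples (color, log2) for the 6 members, 5 assays of other arms and 3 let-7 partners (y axis) in the 12 samples (x axis). Departures of more than 2 are miR-99a and miR-100 in wt control 1 (−11.67, −9.23), miR-99a and miR-125a-3p in P2X7-/- control 1 (−2.64, 8.28), and a few of the other assays.

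Because of these departures, the members were also described in the 8 samples numbered 2 and 3, a choice made after the data were seen. In those, 436 assays had a Ct in each sample, and levels are relative to their mean. By median level miR-125b ranked 11 of 436 (7.02), miR-125a-5p 24 (6.06), miR-100 37 (5.15), miR-99a 38 (5.12) and miR-99b 61 (4.33). miR-125a-3p ranked 385, at −4.47.

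The ranges over those 8 samples were 0.911 for miR-125b, 0.887 for miR-125a-5p, 0.562 for miR-100, 0.590 for miR-99a, 0.932 for miR-99b and 0.650 for miR-125a-3p. The medians of miR-100 and miR-99a differ by less than either range, so their order is not beyond the spread. These ranges leave out the far values of miR-99a, miR-100 and miR-125a-3p, which is why samples 2 and 3 were kept, so they are not compared with those of other assays.

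Pairs of members were compared within samples, with the pairs chosen after the values were seen. miR-99a minus miR-100 lay between −0.43 and 0.11 in the 8 samples numbered 2 and 3, and at −2.48, 0.19 and −0.94 in wt control 1, wt post-SE 1 and P2X7-/- post-SE 1, the other samples with both. The arms of miR-125a differed by 10.04 to 10.86 in those 8 samples (5p minus 3p, log2), so the 5p arm was read far above the 3p arm in each of them.

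Where both had a Ct, the other arms of the same hairpins were less abundant than the members they pair with, apart from miR-99a# in wt control 1. miR-99b# lay between −2.24 and −1.09, the rat assay for miR-99a# between −4.58 and −2.09, and miR-125b-1# between −5.86 and −3.73. Mouse miR-125b# lay between −1.72 and −0.30 apart from 3.14 in wt control 1, whereas the rat assay for miR-125b# lay between −2.17 and −0.83 in all 12 samples. miR-99a# was not low in wt control 1, where miR-99a was: it had its highest level there, −2.09.

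The let-7 partners were abundant and also held single departures. let-7c (chromosome 16 cluster) lay between 3.40 and 4.85. let-7e (chromosome 17) lay between 4.26 and 6.12 apart from 2.69 in P2X7-/- control 3, and let-7a lay between 2.85 and 3.79 apart from 6.62 in P2X7-/- control 1 and 9.16 in wt post-SE 1. let-7c and let-7a have further gene copies outside these clusters, so their assays also read those. Their other arms were lower, with let-7e# between −7.09 and −4.77, let-7c-1# between −4.27 and −2.88 and let-7a# between −1.71 and −0.43.

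The relatives shown by sequence were less abundant than the members they resemble. The mouse miR-351 assay lay between −4.42 and −1.75 and the rat assay between −6.02 and −4.03. miR-10a lay between −5.98 and −1.68, which is below miR-100 and miR-99a in each sample except wt control 1 or where the member had no Ct. The human miR-10b assay had a Ct in 6 samples, at 8.07 in P2X7-/- post-SE 1, 1.84 in P2X7-/- control 1 and −6.75 to −5.46 in the other 4. The mouse miR-10b assay had a Ct in 3 samples, at −9.13 to −8.71, and none in P2X7-/- post-SE 1 or P2X7-/- control 1.

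The groups were then compared by average fold change: 2 to the power of a sample's level minus the mean level of the reference group, averaged over 3 samples. An average above 1.5 counted as higher and one below 0.6 as lower. The 5 comparisons share control samples, so 1 sample enters several of them. Counts are over the 3 members with a Ct in all 12 samples, beside the same share over all 335 assays.

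P2X7-/- control against wt control asks how loss of the receptor alone relates to the miRNAs. Here 2 of 3 members lay above 1.5 and 0 below 0.6, against 21.2% and 15.5% of all assays. miR-125a-3p averaged 143, from 427, 1.29 and 1.05 in samples 1 to 3, so that a single sample made the average; without P2X7-/- control 1 it was 1.17. miR-99a averaged 12.7, from 2.61, 18.4 and 17.1, against a wt control group whose own samples ran from 0.005 to 16.3 times their mean. Without wt control 1 it was 0.897, and in samples 2 and 3 it was 1.25. miR-99b averaged 1.03. Among members without a Ct in all samples, miR-100 averaged 8.60 (n = 2), or 1.02 without wt control 1, and miR-125b 1.61, or 1.14 without P2X7-/- control 1. miR-125a-5p averaged 0.718 (n = 2), or 0.578 without P2X7-/- control 2, which leaves 1 value.

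wt post-SE against wt control asks what the seizure does in wild-type mice. Here 1 of 3 members, miR-99a, lay above 1.5 and 0 below 0.6, against 23.3% and 12.5% of all assays. Its folds of 16.01, 19.2 and 16.3 (average 17.1) came from similar post-SE samples set against the wide wt control group, and without wt control 1 the average was 1.21. miR-100 behaved alike, at 8.44 with that sample and 0.999 without it. The other averages lay between 0.844 (miR-99b) and 1.30 (miR-125b). Without wt control 1 miR-125b averaged 1.64.

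P2X7-/- post-SE against P2X7-/- control asks the same in mice lacking the receptor. Here 1 member lay above 1.5 (miR-99a, 1.59) and 1 below 0.6 (miR-125a-3p, 0.172), against 17.9% and 7.16% of all assays. Both rested on P2X7-/- control 1: without it the averages were 0.841 and 1.23. The remaining averages lay between 0.632 (miR-125b) and 1.38 (miR-125a-5p).

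P2X7-/- post-SE against wt control combines both differences. miR-99a averaged 14.9, 1 of 3 members above 1.5 and 0 below 0.6, against 20.6% and 13.1% of all assays. Without wt control 1 it averaged 1.05, and miR-100 moved from 9.89 to 1.17. The other averages lay between 0.698 (miR-99b) and 1.43 (miR-125a-3p).

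P2X7-/- post-SE against wt post-SE asks how the genotypes compare after the seizure, and it does not use the control samples. Of the 3 members 0 lay past either threshold, against 17% and 4.48% of all assays. The averages of the 6 members lay between 0.759 (miR-125b) and 1.27 (miR-125a-3p).

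In the 8 samples numbered 2 and 3, 0 of 6 members lay past a fold threshold in any of the 5 comparisons. In the order above, the shares of the 436 assays higher and lower were 18.1% and 9.17%, 14% and 7.57%, 18.3% and 6.65%, 16.1% and 5.96%, and 19% and 8.03%. The samples were kept because the far member values lay in the others, so a low member count follows in part from that choice and is not read against these shares.

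The differences were also fitted with limma across all assays, which lets 335 assays share an estimate of the spread. It gave 0 of 335 assays (0%) an adjusted p below 0.05 in the 5 comparisons, the interaction of genotype and SE, or the averages over genotypes and over treatments. At an unadjusted p below 0.05 the counts were 20, 13, 10, 12 and 4 for the 5 comparisons, 8 for the interaction, 11 for SE and 16 for genotype. The two-group test of the methods gave 13, 11, 8, 16 and 4, and 0 after adjustment, with 0 of 3 members at an unadjusted p below 0.05.

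The widest member differences had wide intervals. For miR-99a, wt post-SE minus wt control was 4.09 (log2, 95% interval −1.41 to 9.60, limma adjusted p 0.664), with 3 of 3 post-SE samples above the wt control mean. P2X7-/- control minus wt control was 3.23 (−2.28 to 8.73, limma adjusted p 0.741), again with 3 of 3 above. That mean was set by wt control 1, since wt control 2 and 3 also lay above it, and without wt control 1 the differences were 0.27 and −0.60. The −0.60 still holds the low level of P2X7-/- control 1 (2.34). In samples 2 and 3 the average fold of P2X7-/- control against wt control was 1.25, on the other side of 1. For miR-125a-3p, P2X7-/- control minus wt control was 3.06 (−1.06 to 7.19, limma adjusted p 0.665), carried by 1 sample.

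miR-99b, with no level more than 2 from its median in the other samples, had narrower intervals. Its 5 differences lay between −0.58 (P2X7-/- post-SE minus P2X7-/- control) and 0.01 (P2X7-/- control minus wt control), each with a standard error of 0.45. Without wt control 1, where it was highest, P2X7-/- control minus wt control was 0.53 and wt post-SE minus wt control went from −0.25 to 0.27. The interaction of genotype and SE for miR-99a was −3.44 (−11.22 to 4.35, limma adjusted p 0.851).

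With assays that had a Ct in at least 2 samples of each group, 478 in number and including all 6 members, limma again gave 0 calls in the 8 contrasts (0%), with 23, 18, 13, 15 and 4 assays at an unadjusted p below 0.05 in the 5 comparisons. Without wt control 2 this fit gave 1 to 3 calls in 6 of the contrasts, without wt control 3 it gave 1 call in 1, and without P2X7-/- control 2 it gave 1 call in each of 4, with 0 members among them. The lowest limma adjusted p of a member was 0.775 with all samples, and 0.452, 0.556 and 0.654 without these samples in the same order. This fit leaves out the missing samples, 1 for miR-100, 1 for miR-125b and 2 for miR-125a-5p. miR-100 had log2 differences of 3.10, 3.07, 0.07, 3.17 and 0.11 in the order above, high where wt control was the reference. miR-125b had 0.57, 0.30, −0.69, −0.13 and −0.43, and miR-125a-5p −0.51, −0.11, 0.45, −0.06 and 0.05.

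In samples 2 and 3, over the 5 comparisons and 6 members, log2 differences lay between −0.50 and 0.51 (folds of 0.705 to 1.42), with 95% intervals between −1.38 and 1.36. limma called 0 of 436 assays, with 11, 12, 11, 11 and 11 at an unadjusted p below 0.05, and the lowest adjusted p of a member in the 5 comparisons was 0.948. As folds, the outermost interval ends are 0.385 and 2.56. These samples were kept after the far member values had been seen in the others, so the size of these differences follows in part from that choice.

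In samples 2 and 3 the signs divided miR-125a from the other 4 members in 2 of the 5 comparisons, a split noticed after the values were seen, with 0 inside each interval. For P2X7-/- control minus wt control, miR-99a, miR-99b, miR-100 and miR-125b were at 0.33, 0.35, 0.03 and 0.51, and the arms of miR-125a at −0.50 (5p) and −0.41 (3p). For P2X7-/- post-SE minus P2X7-/- control the same 4 were at −0.38, −0.43, −0.38 and −0.34, and miR-125a at 0.32 and 0.36. These comparisons share the P2X7-/- control samples, so the opposite signs are not independent.

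The other 3 comparisons did not divide the members so. For wt post-SE minus wt control the values were 0.29 (miR-99a), 0.29 (miR-99b), 0.08 (miR-100), 0.29 (miR-125b), 0.05 (miR-125a-5p) and −0.07 (miR-125a-3p). For P2X7-/- post-SE minus wt post-SE they were −0.35, −0.37, −0.44, −0.12, −0.24 and 0.02 in the same order, and for P2X7-/- post-SE minus wt control −0.06, −0.08, −0.36, 0.17, −0.18 and −0.05. None passed the test, and each interval includes 0.

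**Figure D4:**
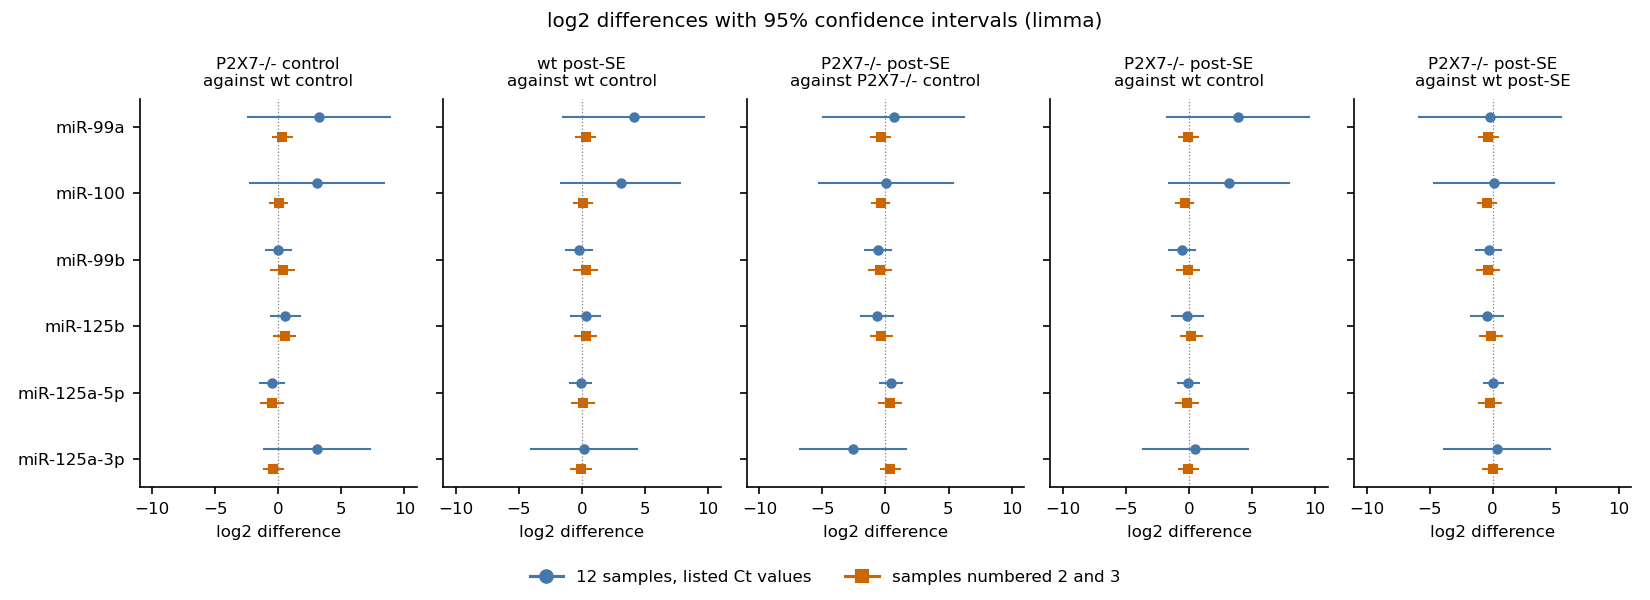
Log2 difference (x axis) with its 95% interval for each member (y axis) in the 5 comparisons, in blue from the fit of all 12 samples (assays with a Ct in at least 2 samples of each group) and in orange from the 8 samples numbered 2 and 3. The blue values of miR-99a and miR-100 reach 4.09 and 3.17 where wt control is the reference, while the orange values lie between −0.50 and 0.51.

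As lists, the members and all assays compare as follows. Over all 12 samples the median log2 difference of P2X7-/- control minus wt control was 3.06 for the 3 members and −0.02 for the 335 assays, and in the fit of 478 assays it was 1.81 for the 6 members and −0.02 for all. The 3.06 is the value of miR-125a-3p, which was 0.22 without P2X7-/- control 1. In samples 2 and 3, kept for the far member values elsewhere, the median was 0.18 for the 6 members and 0.02 for the 436 assays, with median sizes regardless of sign of 0.379 and 0.345. Over all 12 samples the same median was −0.67 for the 5 assays of other arms, −0.47 for the 3 let-7 partners, 0.20 for their 3 other arms and 0.36 for miR-10a and the miR-351 assays. For wt post-SE minus wt control the medians were 0.18 (members), −0.57, −0.11, −0.03 and 0.67 in that order, against −0.09 for the 335 assays. Members and the 335 assays were at −0.58 and 0.02 for P2X7-/- post-SE minus P2X7-/- control. They were at 0.51 and −0.09 for P2X7-/- post-SE minus wt control, and at −0.21 and −0.01 for P2X7-/- post-SE minus wt post-SE. In samples 2 and 3 the 4 lists other than the members were at 0.036, −0.57, 0.53 and 0.19 for P2X7-/- control minus wt control, and at −0.19, 0.11, 0.045 and 1.21 for wt post-SE minus wt control, where the members were at 0.19 and the 436 assays at 0.033. As stated above, limma called 0 of the 335 assays, these lists included.

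An exact permutation test over the samples, two-sided, gave no p below 0.2 for a member in the 5 comparisons, where 3 against 3 cannot go below 0.1. The lowest were 0.333, 0.3, 0.2, 0.5 and 0.4 in the order above (exact permutation). The 0.333 is of miR-125a-5p with 2 against 2 values, the smallest p that size allows, so it says nothing on the difference. For the factors averaged, the lowest p was 0.225 for SE and 0.28 for genotype within the other factor (exact permutation).

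For the 3 members with a Ct in all 12 samples, the most similar of the other assays with a Ct in all 12 were found by Pearson correlation of levels. The points share a normalizer, and single far samples weigh heavily on r. miR-100, miR-125b and miR-125a-5p could not appear in this search. For miR-99a these were miR-150 (r = 0.991), miR-30a-5p (0.987) and miR-101 (0.982) over 12 samples. All 3 were low in wt control 1, at −6.76, −2.60 and −5.10 against medians of 6.54, 5.62 and 2.76 in the other 11. Over those 11 samples, which still hold the low value of P2X7-/- control 1, the nearest were miR-467c (0.922), miR-26b (0.864) and miR-150 (0.846).

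For miR-99b the nearest were miR-339-5p (0.847), miR-485-5p (0.780) and miR-1964 (0.772) over 12 samples, and miR-221 (0.842), miR-543 (0.783) and miR-1964 (0.769) over 11. Those over 12 samples were also higher in wt control 1, where miR-99b was highest. They stood there at 2.59, 7.63 and −0.29, against medians of −0.62, 0.95 and −1.29 in the other 11. For miR-125a-3p, high in P2X7-/- control 1, the nearest were miR-489 (0.965), miR-1954 (0.956) and miR-15b (0.922) over 12, and 0.988, 0.953 and 0.926 over 11. Both sets hold P2X7-/- control 1, where the member was at 3.59, so the second is no check on the first.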

How the data were processed

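The deposited table used here holds raw Ct values for 653 assay lines, 619 of them for miRNAs, in 12 samples. The authors reverse transcribed 1 µg of RNA per sample, pre-amplified it and read it on TaqMan OpenArray plates. The deposited fold-change table was not used, since it takes 1 control sample as reference. For differences between all groups, the methods normalize to the average of the wt control group. Levels are the mean Ct of the assays with a Ct below 28 in all 12 samples, minus the assay's Ct. The methods name global mean normalization, and the set of assays averaged was chosen here. Groups were compared by average fold change (above 1.5, below 0.6), by limma 3.58.1 (R 4.3.3; lmFit and eBayes, 1 coefficient per group, two-sided, Benjamini-Hochberg adjustment over all assays fitted) and by exact permutation (scipy 1.17.1), with Python 3.11.15, numpy 2.4.6, pandas 2.3.3 and matplotlib 3.10.9. The limma fit was tested on simulated data of even spread, with no far samples or missing values, so that test does not cover such values. Depth does not apply to Ct values, and the number of samples limits the precision.

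The assays named are the members, the other arms of their hairpins, the let-7 partners and their other arms, miR-351, miR-10a and miR-10b, the 3 assays most correlated with each member that had a Ct in all samples, the control assays and the cell type markers. The members and lists were chosen with earlier results of these data known. Alternatives were 25 planned settings (normalizer, detection rule, replicate block, each sample left out) and 3 chosen after seeing the data.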

Additional observations from a re-analysis of the deposited data

Results flagged for a closer look

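For miR-99a, P2X7-/- minus wt was 3.23 in control samples and −0.21 post-SE (log2), a distance of 3.44 between the effects of genotype. Each P2X7-/- control sample lay above the mean of wt control, as wt control 2 and 3 did, and each P2X7-/- post-SE sample below the mean of wt post-SE. The interaction of limma tests this distance and gave −3.44 with an adjusted p of 0.851, and without wt control 1 it was 0.39. Without P2X7-/- control 1, and with wt control 1 kept, it was −4.36. In samples 2 and 3, kept after the far values were seen, P2X7-/- minus wt was positive in control and negative post-SE, with 0 inside each interval. For the interaction there, 0 of 6 members had an unadjusted limma p below 0.05. These are some of the same samples, so this is no repeat of the result.

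The plant assay ath-miR159a had a Ct of 23.9492 in wt control 1 and of 13.4739 in P2X7-/- post-SE 1, and none in the other 10 samples. Mouse tissue lacks this RNA, and its part in other values was not tested.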

How the results depend on the processing

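Of the 3 settings added after seeing the data, each keeps only samples 2 and 3, because the members' missing and far values lay in samples numbered 1. In the 25 of 28 settings fitted with limma 0 members passed its threshold. Of 1194 member log2 differences 1073 kept their sign and 121 did not, and 547 of 645 average fold changes stayed within 1 SD. Both counts hold settings that could not change a value, such as leaving out a sample of a group outside the comparison. The SD of a fold change is also wide where 1 far sample made the average, so neither count measures stability. Below, the comparisons are called control (P2X7-/- against wt control), wt (wt post-SE against wt control), knockout (P2X7-/- post-SE against its control), cross (P2X7-/- post-SE against wt control) and post-SE (P2X7-/- against wt post-SE), with averages over genotypes (SE average) and over treatments (genotype average). Scaling moved the median of all 335 assays, which was −0.09 in the wt comparison and −0.02 in the control comparison: to −0.81 and −0.66 with snoRNA202, −0.39 and 0.017 with snoRNA135, −0.40 and −0.48 with no normalizer, and −0.14 and −0.12 with the mean of all detected assays. A cause of these changes was not tested, apart from the samples left out. The snoRNA normalizers are means of the wells with a Ct. In wt control 1 these means were 11.6 (snoRNA202) and 15.4 (snoRNA135), against well medians of 10.4 and 14.4. In wt control 3 the snoRNA202 mean rests on 3 of 16 wells. With 3 pools a group, and 2 where a sample was left out, differences as wide as the intervals given for miR-99a cannot be told from 0; where a lone value was left in a group, limma takes it to vary like the other groups.

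The count of assays called for SE averaged over genotypes went from 0 to 2 with Ct below 26 and to 2 with the median normalizer (miR-21# and miR-685, named after their values were seen). Without wt control 2 it was 1 (miR-685). Without P2X7-/- control 2 it was 1 (miR-21#), as were the wt, knockout and cross counts, so that these 4 ranged from 0 to 1 with each sample left out. In the fit of 478 assays the calls were again 0 for members but more in number. Without wt control 2 there were 3 (cross: miR-138, miR-685 and miR-1897-3P), 2 (SE average: miR-138 and miR-685) and 1 each, miR-138, in the control, wt, interaction and genotype contrasts. Without that sample miR-138 has a lone wt control value, that of wt control 1. Without wt control 3 there was 1 (control: miR-1898), and without P2X7-/- control 2 there was 1 (miR-21#) in the wt, knockout, cross and SE average contrasts. The number of members past a fold threshold became 4 (control), 2 (wt) and 2 (cross) when all 6 members were counted, against 40.8%, 39.5% and 38.7% of the 478 assays. Of 3 members it became 2 with snoRNA202 (wt and cross, against 60.6% and 49.3% of the 335 assays), 2 with the median or no normalizer (cross, 36.4% with each) and 1 with snoRNA135 (post-SE, 35.8%). In samples 2 and 3 it was 0 of 6 in each comparison, or with snoRNA135 1 (control, 30% of the 436 assays) and 0 (wt, knockout and cross, 22%, 29.8% and 33%).

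Leaving out 1 sample at a time, the members past a threshold, of 3, ranged from 1 to 2 (control), 0 to 2 (wt), 0 to 3 (knockout), 0 to 3 (cross) and 0 to 1 (post-SE). The share of the 335 assays ranged from 25.7% to 44.8%, 23% to 41.2%, 24.8% to 34.9%, 20.3% to 42.1% and 21.5% to 31% in that order. Without wt control 1 it was 1, 0 and 0 (control, wt, cross), and without P2X7-/- control 1 it was 1 and 0 (control, knockout). For wt it was 2 without wt control 2, wt control 3 or wt post-SE 1. For cross it was 3 without wt control 3 and 2 without wt control 2, P2X7-/- post-SE 1 or P2X7-/- post-SE 2, and for post-SE 1 without wt post-SE 3.

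Of the average folds past a threshold over all 12 samples, those whose range crossed 1 were 0.897 to 51.3 (control) and 0.841 to 2.23 (knockout) for miR-99a, 0.999 to 24.7 (wt) for miR-100 and 0.0611 to 1.23 (knockout) for miR-125a-3p. The log2 ranges with a change of sign were, for miR-99a, −0.60 to 5.24 (control), −0.26 to 1.14 (knockout), −5.45 to 0.39 (interaction) and −0.40 to 2.51 (genotype average). For miR-100 they were −0.011 to 4.61 (wt), −0.35 to 0.35 (knockout), −0.31 to 0.39 (post-SE) and −4.54 to 0.081 (interaction). miR-99b ranged over −0.32 to 0.53 (control), −0.58 to 0.27 (wt), −0.85 to 0.0053 (interaction) and −0.32 to 0.11 (genotype average). miR-125b ranged over −0.017 to 0.63 (wt), −0.43 to 0.21 (cross) and −0.13 to 0.23 (genotype average). miR-125a-5p ranged over −0.25 to 0.078 (wt), −0.18 to 0.088 (cross) and −0.14 to 0.20 (post-SE). miR-125a-3p ranged over −0.46 to 0.59 (wt), −4.05 to 0.28 (knockout), −0.13 to 0.85 (cross), −0.083 to 0.60 (post-SE), −4.22 to 0.11 (interaction) and −1.93 to 0.23 (SE average).

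Of the same folds past a threshold, those on the other side of 1 in samples 2 and 3 were 0.755 (control) and 1.29 (knockout) for miR-125a-3p, 0.769 (knockout) and 0.965 (cross) for miR-99a, and 0.782 (cross) for miR-100. The log2 differences whose sign changed there were the same with a replicate block. For miR-125a-3p they were −0.41 (control), −0.072 (wt), 0.36 (knockout), −0.050 (cross), 0.43 (interaction), 0.14 (SE average) and −0.19 (genotype average). For miR-99a they were −0.38 (knockout), −0.057 (cross), −0.045 (SE average) and −0.012 (genotype average), and for miR-100 −0.38 (knockout), −0.36 (cross), −0.44 (post-SE), −0.15 (SE average) and −0.21 (genotype average). miR-99b was at 0.29 (wt), miR-125a-5p at 0.053 (wt) and −0.24 (post-SE), and miR-125b at 0.17 (cross).

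In samples 2 and 3 with snoRNA135 as normalizer, those folds were 0.843 (control) and 1.44 (knockout) for miR-125a-3p, 0.868 (knockout) for miR-99a and 0.970 (cross) for miR-100. The log2 differences of miR-125a-3p were −0.27 (control), 0.50 (knockout), 0.48 (interaction), 0.26 (SE average) and −0.029 (genotype average), and that of miR-99a −0.25 (knockout). Those of miR-99b were 0.38 (wt), 0.20 (cross), 0.043 (SE average) and 0.15 (genotype average), and those of miR-100 −0.25 (knockout), −0.078 (cross), −0.25 (post-SE), −0.037 (SE average) and −0.041 (genotype average). miR-125a-5p was at 0.14 (wt), 0.094 (cross) and −0.050 (post-SE), and miR-125b at 0.45 (cross), 0.069 (post-SE) and 0.090 (SE average).

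Over all 12 samples, snoRNA202 put miR-125a-3p at −0.55 (wt) and −0.029 (cross), miR-99b at −0.63 (control) and 0.50 (interaction), miR-125a-5p at −0.025 (SE average) and miR-125b at −0.073 (control), −0.42 (wt) and −0.25 (genotype average). snoRNA135 put miR-125a-3p at −0.13 (wt), miR-99a at 0.087 (post-SE), miR-99b at 0.013 (genotype average), miR-125a-5p at 0.074 (cross) and miR-125b at −0.0029 (wt). With no normalizer miR-125a-3p was at −0.13 (wt), miR-99b at −0.45 (control) and 0.17 (interaction), miR-125a-5p at −0.017 (SE average) and miR-125b at −0.0071 (wt) and −0.24 (genotype average). miR-99b (control) was at −0.090 with the mean of all detected assays and −0.076 with quantile normalization. The median normalizer gave 0.0022 for miR-125a-5p and 0.062 for miR-125b (cross). After group means were taken off, samples of the same number in different groups correlated across assays at −0.227 to 0.277 (median 0.042, 18 pairs). Of these pairs, 4 had r over 0.1. Among them, P2X7-/- control 3 correlated with wt post-SE 3 (0.277) and P2X7-/- post-SE 3 (0.271), and the latter 2 with each other (0.251). Of 12 samples, 6 were closest to one of their own number. Most pairs lay below 0.1, so numbers were not taken to pair samples. With a replicate block the one sign to change was miR-125b (cross), at 0.22.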
